A study of Mus musculus with 4 samples.

Results

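The elastic fibre and microfibril genes are 10 listed genes that encode elastin, the fibrillins, the fibulins and the microfibril-associated glycoproteins: Eln, Fbn1, Fbn2, Fbln1, Fbln2, Fbln5, Efemp2, Mfap2, Mfap4 and Mfap5. They were followed in lung cells from C57BL/6 mice without the leukocyte surface marker CD45, taken 10 days after the trachea received saline (PBS) or bleomycin (BLM), a drug that damages DNA and is used to cause lung fibrosis in mice. Each gene was read from the array row annotated to that gene symbol alone. Such a row was found for 8 of the 10 genes, among 30142 genes in all, and each of the 8 had a single row. Fbn1 and Efemp2 were not analysed here. Total RNA from 2 PBS samples and 2 BLM samples was hybridised to 1 Affymetrix array each, and the labels do not tie samples to animals. The p-values therefore reflect the spread between the arrays of a group, pooled in part over all genes. That spread can be purely technical. The single comparison, BLM against PBS, asks which genes of the lung's non-leukocyte cells differ while fibrosis develops.

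An elastic fibre has a core of crosslinked elastin laid down on a scaffold of microfibrils, whose backbone is fibrillin. Elastin is secreted as the soluble monomer tropoelastin, fibulins help bring it to the microfibrils, and lysyl oxidases crosslink it into an insoluble polymer. In the lung these fibres give the alveolar walls and airways their elastic recoil, and most elastin is made while alveoli form. Fibroblasts, smooth muscle and mesothelial cells are among its known sources.

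Promoter sequences from RefSeq (GRCm38.p6) were used for 4 of the 8 measured genes, Fbln1, Fbln2, Fbln5 and Mfap2. Each ran from 250 bases before to 50 bases after a transcription start, with 7 start sites between the 4 genes. These genes, like the other measured ones, were all higher on the BLM arrays. The first listed start of each gene is printed 5′ to 3′ on the gene's own strand, with capitals marking every match, on either strand, to GGGCGG (a GC box) or CAGAC (a SMAD-type site).
Fbln1, chr15:85205699-85205998, plus strand: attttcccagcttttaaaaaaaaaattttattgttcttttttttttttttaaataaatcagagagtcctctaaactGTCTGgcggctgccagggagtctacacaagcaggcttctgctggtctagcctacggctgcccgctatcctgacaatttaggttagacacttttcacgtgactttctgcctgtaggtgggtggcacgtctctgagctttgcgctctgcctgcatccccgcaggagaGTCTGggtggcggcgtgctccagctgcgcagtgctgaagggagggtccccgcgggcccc
Fbln2, chr6:91212514-91212813, plus strand: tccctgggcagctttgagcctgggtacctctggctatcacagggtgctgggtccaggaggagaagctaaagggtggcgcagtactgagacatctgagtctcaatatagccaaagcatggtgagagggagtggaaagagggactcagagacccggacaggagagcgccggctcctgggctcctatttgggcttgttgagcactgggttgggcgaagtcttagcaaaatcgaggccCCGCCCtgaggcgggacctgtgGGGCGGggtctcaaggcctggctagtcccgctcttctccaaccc
Fbln5, chr12:101819070-101819369, minus strand: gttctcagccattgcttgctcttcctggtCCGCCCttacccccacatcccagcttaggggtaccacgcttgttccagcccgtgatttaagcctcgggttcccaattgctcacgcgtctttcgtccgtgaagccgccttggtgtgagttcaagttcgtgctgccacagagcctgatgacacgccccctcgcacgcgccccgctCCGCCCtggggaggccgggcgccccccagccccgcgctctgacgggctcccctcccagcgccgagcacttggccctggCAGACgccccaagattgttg
Mfap2, chr4:141010431-141010730, plus strand: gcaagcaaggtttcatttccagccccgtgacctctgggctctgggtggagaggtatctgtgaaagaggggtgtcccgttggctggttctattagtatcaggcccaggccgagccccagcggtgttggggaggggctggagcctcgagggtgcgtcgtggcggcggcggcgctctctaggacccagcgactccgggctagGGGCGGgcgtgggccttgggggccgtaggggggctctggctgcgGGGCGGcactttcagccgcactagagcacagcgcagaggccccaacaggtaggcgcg

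Searched on both strands, GGGCGG occurred in 4 of the 7, and in at least 1 window of each of the 4 genes. The same letters occurred in 35.7% of all 32851 promoter windows in the table. CAGAC, likewise searched on both strands, occurred in 5 of the 7 windows, against 49.6% of all windows, and in 3 of the 4 genes. The shares of all windows are per window, and no share per gene was computed to set beside the gene counts. The TATA box letters TATAAA occurred in 0 of the 7 windows, against 13.6% of all windows. The AP-1 site, searched as TGANTCA, was also in 0 of the 7, against 7.81% of all windows. The 4 motifs share no bases in these windows, but the Fbln1 windows overlap each other, as do those of Mfap2, so the 7 are not separate sequences. A match is a description of the letters only.

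Before the results, 2 properties of the arrays bear on all of them. Xist, a transcript of the inactive X in female cells, stood at 15.86 and 15.61 (log2) after PBS and at 5.60 and 5.43 after BLM, and the labels give no sex, so treatment and sex cannot be told apart. None of the 8 measured genes lies on the X or Y chromosome, while Atp7a, Bgn and Timp1 of the related lists lie on the X. Ptprc, which encodes CD45, stood at 6.30 and 6.21 after PBS and at 7.19 and 7.20 after BLM. Differences below are BLM minus PBS on the log2 scale, each with its standard error (SE) and n = 2 arrays a group, and a gene is said to have risen or fallen where its adjusted p in the limma fit over all 30142 genes was under 0.05. In bulk RNA, more cells of a type and more RNA per cell cannot be told apart.

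All 8 measured genes rose after BLM, and none fell. Of all 30142 genes tested, 15.2% rose by the same rule and 25.3% passed in either direction. The members' median difference was 1.23, against 0.05 over all genes, and 6 of the 8 rose by at least 1 log2 unit, where 2.81% of all genes did and 2.33% fell as far. For every one of the 8, the lower BLM array stood above the higher PBS array, which was so for 38.0% of all genes. The 8 differences ranged from 0.46 for Fbln1 to 3.17 for Eln, with Eln, Mfap5 and Mfap4 at the upper end and the 3 fibulins at or below 1.05.

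**Figure D1:**
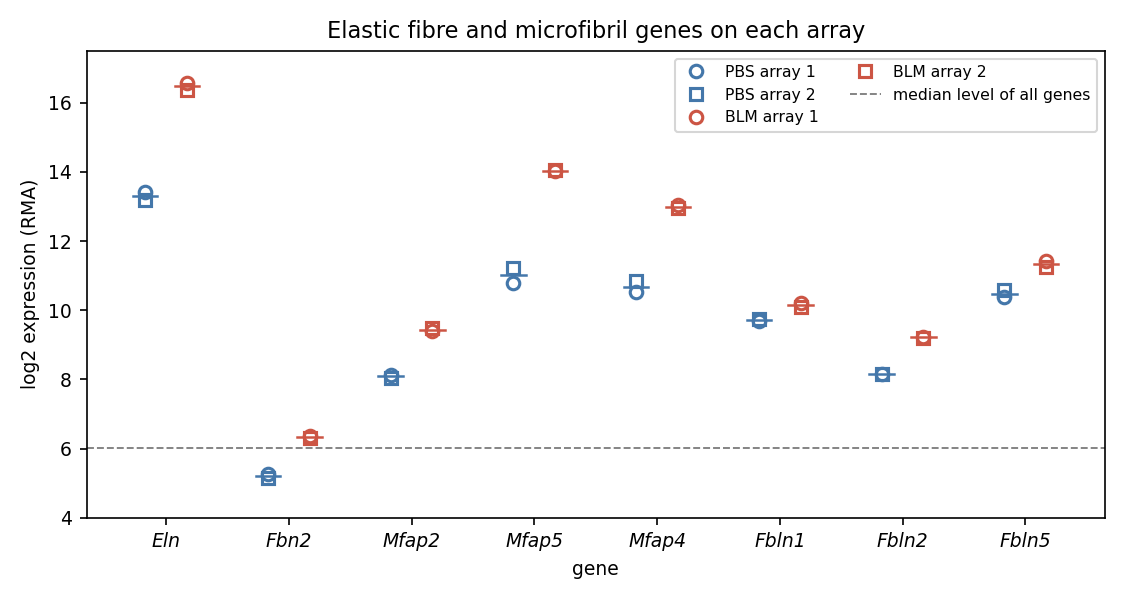
Log2 expression (y axis) of the 8 measured genes (x axis) on each of the 4 arrays. Circles and squares are arrays 1 and 2 of a group, blue is PBS, red is BLM, short lines are group means and the dashed line is the median level of all genes, 6.03. In every gene both BLM points lie above both PBS points, and Fbn2 on PBS arrays is the one below the dashed line.

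Eln encodes tropoelastin, the monomer of the elastic core. Its level was 13.42 and 13.20 after PBS and 16.57 and 16.38 after BLM. The groups lay 2.96 log2 units apart at their nearest, while the arrays of a group differed by 0.22 (PBS) and 0.19 (BLM). Eln rose by 3.17 (SE 0.12, adjusted p = 0.000294), or 8.97-fold with a 95% interval of 7.29 to 11.1. This was the 27th highest difference of the 30142 genes. The BLM values lie above 16, as did 197 to 206 genes on each array. A 16-bit scanner, which was assumed here, cannot record more than 16 in log2 units. If that assumption is right, the deposited scale holds a step that the sources do not state. The fold and its interval therefore hold only if 1 unit of that scale is a doubling, and the same applies to every fold below.

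Fibrillins form the microfibril backbone, and the fibrillin measured here was Fbn2, which encodes the form best known from development. Fbn2 stood at 5.27 and 5.16 after PBS and at 6.36 and 6.30 after BLM. The groups did not overlap, but the PBS values lay under the all-gene median of 6.03, a range in which arrays understate differences, so its size is not exact. The Fbn2 difference was 1.12 (SE 0.09, adjusted p = 0.00116), or 2.17-fold. No other member had a group mean below that median.

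Mfap2 and Mfap5 encode MAGP-1 and MAGP-2, a pair of small related glycoproteins that bind fibrillin. Mfap5 read 10.80 and 11.23 after PBS and 14.03 and 14.04 after BLM. The BLM arrays differed by 0.01 and the PBS arrays by 0.44, the widest gap within a group among the 8 genes. Mfap5 rose by 3.02 (SE 0.15, adjusted p = 0.000448), or 8.13-fold (95% interval 6.20 to 10.7), the 35th highest difference of all genes. Mfap2 read 8.14 and 8.04 after PBS and 9.39 and 9.47 after BLM, with 1.25 between the nearest arrays of the groups. It rose by 1.34 (SE 0.09, adjusted p = 0.000768), or 2.54-fold. The 95% intervals of this pair, 1.12 to 1.56 for Mfap2 and 2.63 to 3.41 for Mfap5, did not overlap.

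Mfap4 belongs to another protein family, with a fibrinogen-like domain, and binds both tropoelastin and fibrillin. It stood at 10.52 and 10.84 after PBS and at 13.05 and 12.94 after BLM. The PBS arrays were 0.31 apart and the BLM arrays 0.10, against 2.11 between the nearest arrays of the groups. Mfap4 rose by 2.32 (SE 0.13, adjusted p = 0.00051), or 4.98-fold (95% interval 3.98 to 6.23).

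Fibulins link elastin, microfibrils and cell surfaces. Fbln5 encodes fibulin-5, which binds tropoelastin and integrins and is needed to organise elastic fibres in mice. Its values were 10.39 and 10.57 after PBS and 11.43 and 11.26 after BLM. Fbln5 rose by 0.86 (SE 0.11, adjusted p = 0.00473), or 1.82-fold, with 0.69 between the nearest arrays and 0.18 and 0.17 between arrays of a group. Fbln2 encodes fibulin-2, found in elastic fibres of vessel walls and in basement membranes. It was at 8.16 on both PBS arrays and at 9.23 and 9.19 after BLM. Its difference of 1.05 (SE 0.08, adjusted p = 0.0011) or 2.08-fold was of a size with that of Fbn2. Fbln1 encodes fibulin-1, another component of elastic fibres and basement membranes, and had the smallest difference of the 8. It stood at 9.68 and 9.73 after PBS and at 10.22 and 10.10 after BLM, so the groups were 0.37 apart at their nearest. Fbln1 rose by 0.46 (SE 0.09, adjusted p = 0.0177), or 1.37-fold. That call was lost when PBS replicate 1 (0.43, adjusted p = 0.0664), BLM replicate 1 (0.40, adjusted p = 0.109) or BLM replicate 2 (0.52, adjusted p = 0.056) was left out, and its difference was 0.33 with cyclic loess scaling (adjusted p = 0.0349).

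**Figure D2:**
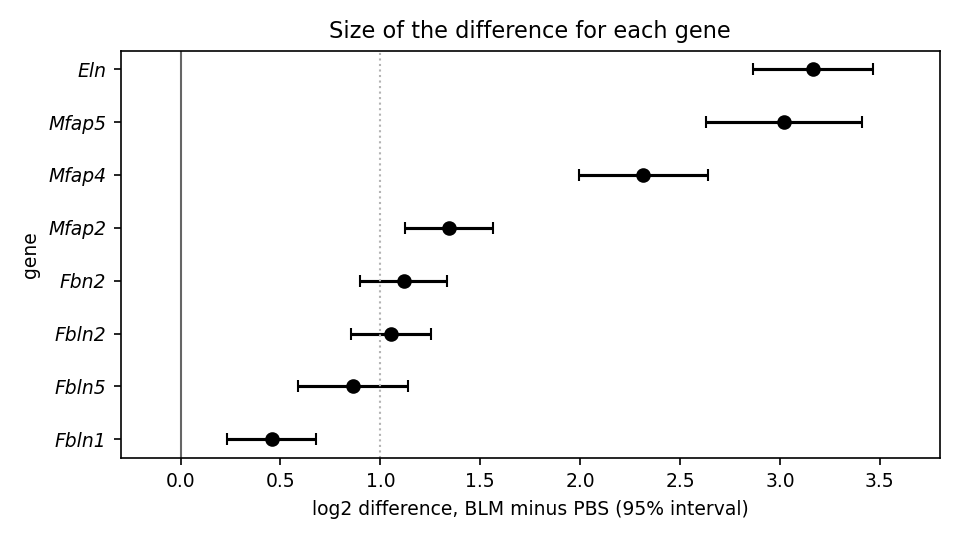
Log2 difference of BLM minus PBS (x axis) for each gene (y axis), with its 95% interval from the limma fit. The solid vertical line is 0 and the dotted line is 1 log2 unit. Every interval lies above 0, and those of Eln, Mfap5 and Mfap4 lie above the upper bound of Mfap2, 1.56.

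In order of size the differences ran Eln, Mfap5, Mfap4, Mfap2, Fbn2, Fbln2, Fbln5 and Fbln1. The intervals of Eln (2.87 to 3.47) and Mfap5 overlapped almost wholly, and that of Mfap4 (1.99 to 2.64) met that of Mfap5 only at its edge. Mfap2, Fbn2 (0.90 to 1.33), Fbln2 (0.85 to 1.25) and Fbln5 (0.59 to 1.14) each overlapped the next in order. The interval of Fbln1 (0.23 to 0.68) reached that of Fbln5 but not that of Fbln2. Whether 2 genes differed in their change was not tested.

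By the Euclidean distance between values over the 4 arrays, each centred on the gene's mean, the named genes nearest to Eln were Col1a2, S100a4 and Uck2. Col1a2, a chain of type I collagen, was 0.15 log2 units away, at 10.31 and 10.28 after PBS and 13.48 and 13.35 after BLM. S100a4, a calcium-binding protein gene, was 0.18 away with a difference of 3.33 (SE 0.11), and Uck2, a uridine-cytidine kinase gene, was 0.23 away with 2.96 (SE 0.09). With 4 arrays in 2 groups, this likeness is mostly that of the size of the difference.

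Genes of the steps around the fibre were counted in lists. By the same rule 15.2% of all 30142 genes rose and 10.1% fell. Whether any of the lists differs from these shares was not tested. Of 8 measured genes of elastin crosslinking, that is lysyl oxidases and genes of copper supply and secretion, 6 rose, none fell and 2 did not pass, with a median difference of 0.67. Loxl1, the lysyl oxidase most closely tied to elastic fibres, read 11.73 and 11.89 after PBS and 14.74 and 14.73 after BLM. Lox read 6.48 and 6.80 against 8.83 and 8.82, and Loxl3 read 7.78 and 7.70 against 9.15 and 9.08. These 3 rose by 2.92 (SE 0.09), 2.18 (SE 0.13) and 1.37 (SE 0.08). Atp7a, the copper pump that loads lysyl oxidases, rose by 0.54 (0.44 to 0.60 over its alternatives), a call lost without BLM replicate 1. The 2 that did not pass were Loxl4 at 0.31 and the transporter gene Slc2a10 at 0.14.

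All 4 latent TGF-beta binding protein genes, which belong to the fibrillin superfamily, were measured. Of these 3 rose and none fell, against 15.2% and 10.1% of all genes, with a median of 0.78. Ltbp2, whose product lies in elastic fibres and does not bind latent TGF-beta, stood at 7.12 and 7.17 after PBS and at 11.30 and 11.19 after BLM, a rise of 4.10 (SE 0.09, adjusted p = 0.000157). Ltbp4, which helps place elastin on microfibrils together with fibulin-5, stood at 11.99 and 12.07 against 12.31 and 12.20, and its difference of 0.23 (95% interval 0.00 to 0.45) did not pass (adjusted p = 0.129).

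Of 14 further relatives and binding partners, 9 rose, none fell and 5 did not pass, with a median of 0.89. The all-gene shares were 15.2% risen and 10.1% fallen. Emilin1, a glycoprotein at the border of elastin and microfibrils, read 6.94 and 6.98 after PBS and 8.63 and 8.34 after BLM, and rose by 1.53 (SE 0.12). Vcan, the versican gene, whose proteoglycan binds fibrillin and fibulins, rose by 1.52 (SE 0.09), and Mmrn1, a multimerin of the emilin family, by 1.71 (SE 0.10). Fn1, encoding the fibronectin on which microfibrils assemble, and the proteoglycan gene Bgn rose by 4.14 (SE 0.08) and 1.74 (SE 0.10). Of the further fibulin relatives, Fbln7 and Hmcn1 rose by 0.75 (SE 0.08) and 1.36 (SE 0.09), and Hmcn2 did not pass at -0.05 (SE 0.08). Efemp1, the fibulin-3 gene, went the other way from the fibulins among the members, at -0.28 (SE 0.11, adjusted p = 0.142), and did not pass. It read 12.65 and 12.91 after PBS and 12.47 and 12.53 after BLM, and with cyclic loess it passed as lower, at -0.47 (adjusted p = 0.0362, the lowest over its alternatives). Efemp1, Fbln7, Hmcn1 and Hmcn2 were singled out after their values were seen.

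Genes of the ADAMTS and ADAMTS-like proteins directed to microfibrils moved in both directions. Among the 11 with a row, 4 rose, 2 fell and 5 did not pass, with a median of 0.09, near that of all genes. Adamts17, a secreted protease linked to fibrillin microfibrils, rose by 1.82 (SE 0.09), from a mean of 6.24 to a mean of 8.06. The 2 that fell, named after their values were seen, were Adamtsl1 at -0.86 (SE 0.08, adjusted p = 0.002) and Thsd4, whose product ADAMTSL6 promotes fibrillin-1 assembly, at -0.72 (SE 0.10, adjusted p = 0.00575). Thsd4 read 8.78 and 8.64 after PBS and 7.92 and 8.05 after BLM. By the same rule 15.2% of all genes rose and 10.1% fell, and whether the list differs from them was not tested. When BLM replicate 1 was left out, 2 of the 11 rose and 2 fell, against 7.74% and 5.54% of all genes. The counts were again 2 and 2 with BLM replicate 2 left out, against 8.92% and 5.6%.

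**Figure D3:**
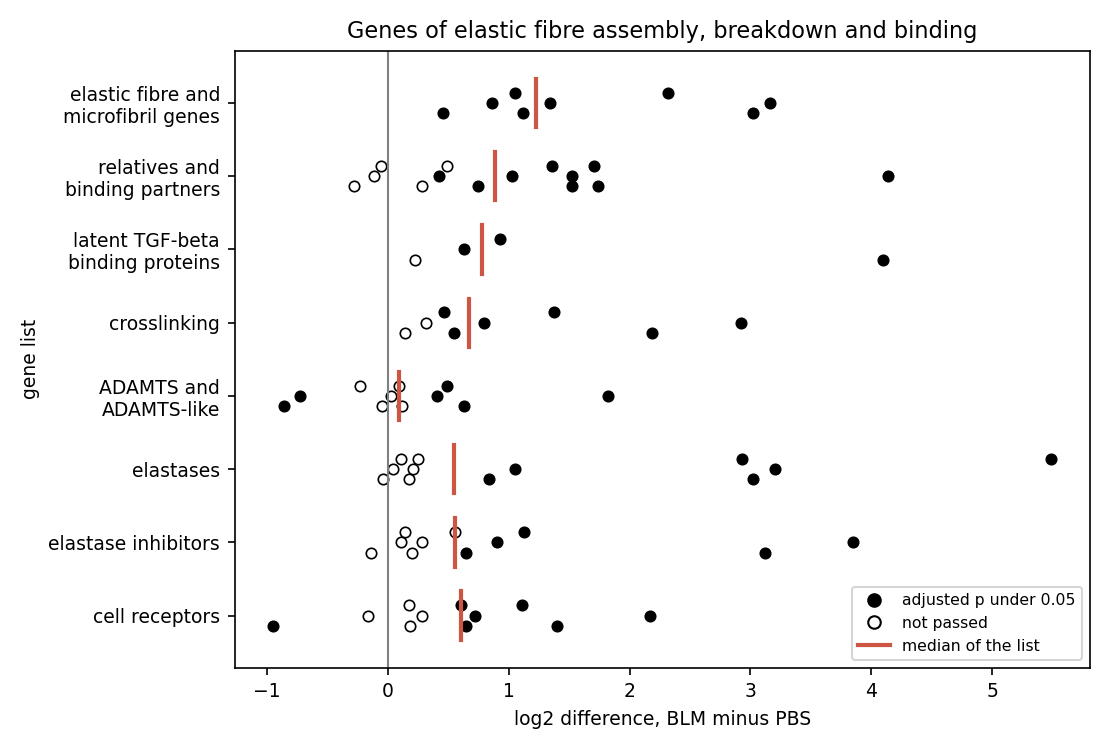
Log2 difference of BLM minus PBS (x axis) for every measured gene of each list (y axis). Filled points have an adjusted p under 0.05, open points do not, the red bars are list medians and the vertical offset within a list has no meaning. The elastic fibre and microfibril genes lie wholly to the right of 0, as do the latent TGF-beta binding protein and crosslinking lists. The other lists hold points on both sides.

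Of 12 proteases that cleave elastin or, like Mmp14, activate one that does, 6 rose and none fell, against 15.2% and 10.1% of all genes. Their median was 0.54. The 6 that did not pass, Mmp7, Mmp9, Ctsg, Elane, Prtn3 and Cela1, were below the all-gene median on all 4 arrays. Ctss is also counted among the leukocyte markers below. Ctss, the macrophage-rich cathepsin S gene, read 7.32 and 7.64 after PBS and 13.00 and 12.93 after BLM, a rise of 5.49 (SE 0.13). Mmp12, encoding macrophage elastase, read 5.66 and 5.84 against 8.54 and 8.82, and its PBS values lay under the all-gene median, so the size of its rise of 2.93 (SE 0.13) is not exact. Mmp14, Mmp2 and Ctsk rose by 3.20 (SE 0.11), 3.02 (SE 0.10) and 1.05 (SE 0.09). The neutrophil elastase gene Elane, at 4.16 and 4.11 against 4.25 and 4.43, stayed below that median on all 4 arrays and did not pass, at 0.21 (adjusted p = 0.198).

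Of 11 inhibitors of these enzymes, 5 rose, none fell and 6 did not pass, with a median of 0.56. Among all genes 15.2% rose and 10.1% fell. Serpina3n rose by 3.85 (SE 0.29), from 10.39 and 11.26 after PBS, which lay 0.88 apart, to 14.55 and 14.79. The metalloproteinase inhibitor genes Timp1 and Timp2 rose by 3.12 (SE 0.16) and 1.13 (SE 0.11), while Timp3 stood at -0.14 (SE 0.08, adjusted p = 0.261) and, with cyclic loess, passed as lower at -0.33 (adjusted p = 0.0308, the lowest over its alternatives). The 4 measured alpha-1-antitrypsin genes are near-identical copies, so values such as the 0.91 of Serpina1b are uncertain as to which copy they reflect.

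Among 11 measured receptors for elastin and microfibrils, 6 rose, 1 fell and 4 did not pass, with a median of 0.61. The shares over all genes were 15.2% risen and 10.1% fallen. Itgb6 and Itgb5, integrin subunits that pair with the αv chain, rose by 2.17 (SE 0.10) and 1.40 (SE 0.09), and Itgav itself by 0.65 (SE 0.09). Ctsa, the protective protein of the elastin receptor complex, rose by 1.11 (SE 0.09), and the sialidase of that complex, Neu1, did not pass at 0.19 (adjusted p = 0.161). The receptor gene that fell, named after its value was seen, was Itga9 at -0.95 (SE 0.08, adjusted p = 0.00173), from 12.02 and 11.92 to 11.00 and 11.04.

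Markers of cell types, among them the known sources of elastin named above, were read on the same arrays. The part of these cells in the members' rise was not tested. Over all genes, 15.2% rose and 10.1% fell by the same rule, and both shares were lower with any 1 array left out. Whether a marker list differs from these shares was not tested. Of 11 measured fibroblast markers, 10 rose and none fell (median 1.19), with a mean log2 level over the list of 9.46 and 9.52 after PBS and 11.30 and 11.25 after BLM. Of 8 smooth muscle markers, 3 rose and 3 fell (median 0.17), with means of 11.72 and 11.73 against 11.76 and 11.78. Mesothelial markers rose in 5 of 6 cases (median 0.97), from means of 7.70 and 8.02 to 8.83 and 8.87, and in 3 of 6 without BLM replicate 1 or BLM replicate 2, since the calls of Upk3b (adjusted p = 0.0698 and 0.0896) and Krt19 were lost there. With any 1 array left out, 2 of the smooth muscle markers rose and 1 fell, and 2 of the endothelial markers rose. Endothelial markers rose in 3 of 8 cases and fell in 1 (median 0.28), with means of 12.15 and 12.29 against 12.76 and 12.58, and epithelial markers rose in 0 and fell in 4 of 7 (median -0.69), with means of 14.46 and 14.49 against 13.92 and 13.84. Leukocyte markers, which the CD45-negative fraction should lack, rose in 8 of 12 cases and fell in 1, (median 0.78), with means of 7.37 and 7.36 against 8.72 and 8.65. The calls of Des, Cnn1 and Lmod1 among the smooth muscle markers, and of Krt19, Kdr and Itgam in the other lists, were each lost whichever array was left out. Those of the fibroblast markers Thy1 and Wnt2 and the leukocyte marker Csf1r were lost when BLM replicate 1 was left out. The Thy1 call was also lost without PBS replicate 2, and the Wnt2 call without PBS replicate 1 or BLM replicate 2. The T cell gene Cd3e and the B cell gene Cd79a were under the all-gene median on all 4 arrays. The leukocyte gene that fell was Lyz2, which surfactant-producing epithelium also expresses, at -1.14 (SE 0.09).

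**Figure D4:**
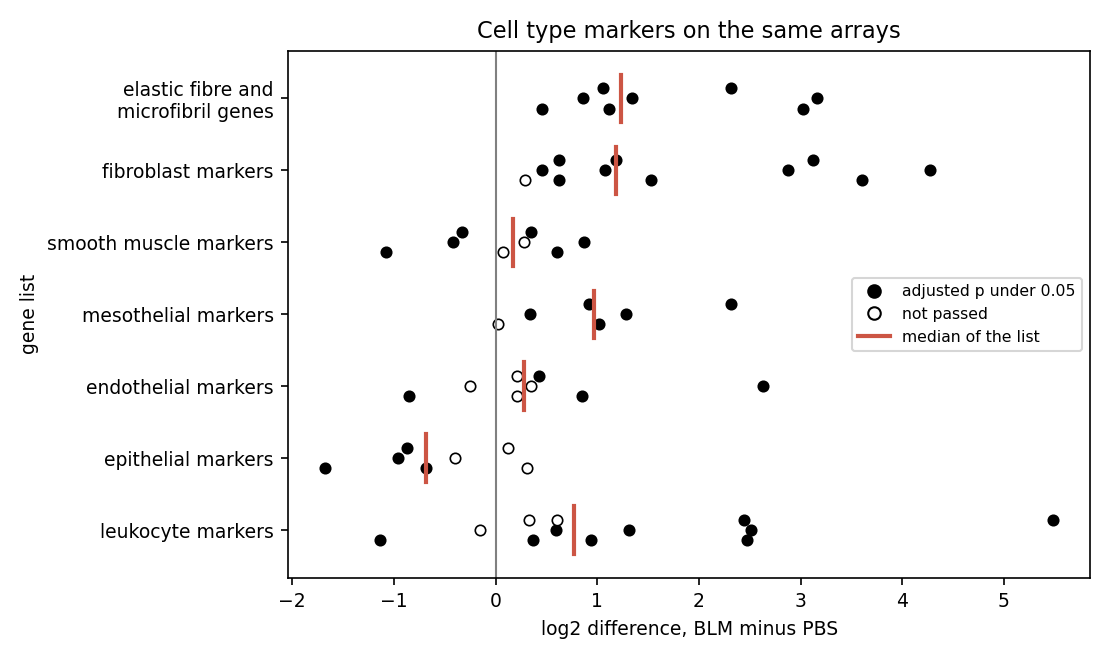
Log2 difference of BLM minus PBS (x axis) for the elastic fibre and microfibril genes and for each measured marker of 6 cell types (y axis). Filled points have an adjusted p under 0.05, open points do not, red bars are list medians and the vertical offset within a list has no meaning. List medians are 1.23 for the members, 1.19 for fibroblast, 0.97 for mesothelial and 0.78 for leukocyte markers. They are 0.28 for endothelial, 0.17 for smooth muscle and -0.69 for epithelial markers. The fibroblast list includes the collagen genes Col1a1, Col1a2 and Col3a1.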

How the data were processed

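The deposited values are log2 expression per transcript cluster. Per the submitters' processing notes, the authors obtained them with RMA, which corrects background, gives the arrays a common distribution and summarises probes, in Affymetrix Expression Console. The sources used here give no versions, no array build and no later scaling. Array medians over the tested genes were 5.99 to 6.03, and the number of arrays limits the precision.

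Rows were named through the platform's annotation, with 827 symbols updated through Entrez identifiers and the RefSeq gene table (GRCm38.p6). Of 65770 transcript clusters, 30604 had 1 symbol. The row with the highest mean was kept for each of 30142 genes. All were fitted together in R 4.3.3 with limma 3.58.1 (lmFit, then eBayes, two-sided, Benjamini-Hochberg adjustment, threshold 0.05), with 2 residual and 3.33 prior degrees of freedom, and the median SE of a difference was 0.0969. The procedure was also run on simulated data in which few genes changed and noise was independent between arrays. Such data do not cover the split by sex or technical replicates. Promoter motifs were searched in RefSeq sequences.

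The members, gene lists and motifs were chosen with earlier results of these data known. All 10 members were named whatever their result. Of each related list, up to 5 genes were named that differed by at least 1 log2 unit and passed, together with 3 genes most like Eln, Xist and Ptprc. Other genes were named after their values were seen. Alternatives were a block for the replicate number, each array left out, dim genes left out, rows of a gene averaged, a trended robust prior, median centring, cyclic loess and leaving out the X and Y chromosomes.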

Additional observations from a re-analysis of the deposited data

How the results depend on the processing

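Across 11 alternatives, 87 values of the 8 members were computed, since Fbn2 was removed where genes below the median level were left out. All 87 kept their direction, 84 kept their side of the threshold, and the other 3 were those of Fbln1 given above. Eln ranged from 2.99 to 3.28, Mfap5 from 2.80 to 3.24, Mfap4 from 2.13 to 2.47, Mfap2 from 1.25 to 1.39, Fbn2 from 1.06 to 1.17, Fbln2 from 0.97 to 1.07 and Fbln5 from 0.70 to 0.95. The count of members that rose was 7 to 8 when 1 array was left out. With the replicate number as a block all 8 members rose and 6742 genes passed, against 7629 without it. Same-numbered arrays shared only a number (r = 0.014 between the PBS and BLM deviations over genes, which are not independent replicates), so the block is a check and not a pairing. Over all genes, 4003 to 5956 passed when 1 array was left out, with 4003 without BLM replicate 1 and 4379 without BLM replicate 2. A fit without 1 array takes its spread from the other group's pair and assumes the lone array varies alike. Of the genes that passed, 60.1% were higher on the BLM arrays, against 49.6% with cyclic loess, which put the median difference of all genes at -0.004 in place of 0.05. The counts of genes passing in the 7 related lists, both directions together, stayed within 1.5 times their main value under every alternative. With a BLM array left out, the crosslinking and ADAMTS lists reached that limit. In the ADAMTS list the count that rose, taken alone, went beyond it. No detection calls were used, so for Fbn2 and other dim genes signal near background limits the size of the difference.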
